A study of Mus musculus with 87 samples.

Results

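The 7 genes described here encode the IFN-γ receptor chains (Ifngr1, Ifngr2), Janus kinases (Jak1, Jak2) and transcription factors of the STAT family (Stat2, Stat3, Stat4). They were taken by name from this signalling route, out of 48526 genes in the deposited table. All were measured in nuclei of the ventral midbrain of wildtype C57BL/6J mice, adult males and females of 6 to 12 months. The mice had been injected on both sides by stereotaxy with 40 ng of recombinant mouse IFN-γ in 400 nL of saline, or with 400 nL of saline alone. Nuclei were taken 6, 24, 48 or 72 h later and sorted by an antibody to NeuN, a protein of neuronal nuclei, into NeuN+ and NeuN- wells for sequencing of 3′ ends with unique molecular identifiers (UMIs). Each fraction had 42 wells. At each time point 6 of them had received IFN-γ, and the saline wells numbered 6 at 24 h and 4 at the other times. Unsorted to a single fraction, and with NeuN+ nuclei enriched, 4699 single nuclei of 48 h were profiled from 1 mouse given saline and 2 given IFN-γ.

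IFN-γ binds a receptor made of a pair of chain types, of which IFNGR1 holds the binding site for the cytokine and for JAK1, and IFNGR2 recruits JAK2. The kinases phosphorylate each other and the receptor, and STAT proteins docked there are phosphorylated and enter the nucleus. STAT dimers bind palindromic elements of the GAS type, while STAT2 acts with IRF9 on elements of the ISRE type, best known from the response to type I interferon. In the brain, microglia carry much of the machinery for sensing cytokines, and neurons and macroglia also have interferon receptors.

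The labels call all 84 wells NeuN+, whereas the sample sheet of the study gives NeuN- for 42 of them, and this sheet set the fraction used here. The summed level of 4 neuronal markers in the counts was 3749 to 7881 CPM (counts scaled to a total of 1000000 per well) in NeuN+ wells and 175 to 1670 in NeuN- wells, and Rbfox3, which encodes NeuN, was at 93.8 to 206 and 0 to 130 CPM. Oligodendrocyte RNA was also found in NeuN+ wells, where 6 markers summed to 157 to 700 CPM, against 2347 to 8692 CPM in NeuN- wells. The part of glial RNA in the levels of the members in NeuN+ wells was not tested. The total of a well was 277113 to 1684374 UMIs in the NeuN+ and 20962 to 301445 in the NeuN- fraction, which makes a count of 1 weigh more in a NeuN- well. The wells of a group came from 2 or 3 mice and which wells share a mouse was not given, so the p-values measure spread between wells that may be technical. The methods state 100 nuclei per well and a legend about 1000. A pair of NeuN- IFN-γ wells at 6 h differed by no more than sampling noise (chi-square per degree of freedom 1.02, against 1.16 or more for the other pairs of that group) and was counted as 1 sample, which leaves n = 5 there.

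Jak2, Stat2 and Stat3 were the members that rose after IFN-γ in sorted wells, and the sequence before their start sites is shown for that reason. The windows hold the 250 bases upstream of the RefSeq start on GRCm38.p6, 5′ to 3′ on the strand of the gene, with letters in capitals where an ISRE-type match (TTTC, 2 bases of any kind and TTTC, on either strand) lies. They are chr10:128270248-128270497 on the + strand for Stat2, chr11:100939541-100939790 on the - strand for Stat3 and chr19:29251553-29251802 on the + strand for Jak2.
Stat2: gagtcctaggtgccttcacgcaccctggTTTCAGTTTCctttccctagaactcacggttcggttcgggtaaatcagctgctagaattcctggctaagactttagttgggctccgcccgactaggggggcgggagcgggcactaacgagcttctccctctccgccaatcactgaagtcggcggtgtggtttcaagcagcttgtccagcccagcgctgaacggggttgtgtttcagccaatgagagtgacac
Stat3: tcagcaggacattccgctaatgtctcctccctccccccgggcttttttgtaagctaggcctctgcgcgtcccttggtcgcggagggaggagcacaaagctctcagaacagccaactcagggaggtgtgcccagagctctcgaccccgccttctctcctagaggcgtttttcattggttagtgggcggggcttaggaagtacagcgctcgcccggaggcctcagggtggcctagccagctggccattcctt
Jak2: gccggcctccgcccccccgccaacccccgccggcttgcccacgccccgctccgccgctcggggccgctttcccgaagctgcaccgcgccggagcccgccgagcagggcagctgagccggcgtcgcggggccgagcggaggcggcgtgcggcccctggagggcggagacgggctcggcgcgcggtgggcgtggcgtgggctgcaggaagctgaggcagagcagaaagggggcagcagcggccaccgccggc
The match in Stat2 lies at bases -222 to -213 from the RefSeq start. Neither Stat3 nor Jak2 has one in this window. The Gencode starts of Stat2 (128270559) and Jak2 (29251828) lie further downstream, so distances from them are larger. A stretch of bases after the RefSeq start was found in a Gencode transcript for Stat3 but not for Stat2 or Jak2. All 7 genes matched RefSeq, with 8 windows because Stat4 has a pair of them, 1 of which holds GAAAGTGAAA, the same motif on the other strand, at -97 to -88. The ISRE-type motif occurred in 2.98% of all 32841 RefSeq windows of this length and the GAS-type motif (TTCNNNGAA) in 7.02%, and the GAS-type motif was in none of the 8 windows. A match is a description of these letters and was not tested as a binding site.

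The receptor genes were at the edge of detection in sorted wells. Ifngr1 (ENSMUSG00000020009.12, GRCm38 chr10:19591949-19610229, + strand) had 0 to 8 counts per NeuN- well and 2 to 16 per NeuN+ well. Its medians at 6, 24, 48 and 72 h in NeuN+ wells were 8.63, 6.65, 6.62 and 7.45 CPM after IFN-γ and 4.87, 7.17, 6.44 and 6.45 CPM after saline. Ifngr1 failed the filter on low counts in every comparison of wells. Without the filter its log2 fold changes between treatments ran from -1.35 (NeuN-, 24 h, adjusted p = 0.241) to 0.88 (NeuN-, 72 h, adjusted p = 0.642), and none passed. Its IFN-γ and saline wells overlapped in both fractions at all 4 time points.

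Ifngr2 (ENSMUSG00000022965.7, chr16:91547072-91565623, + strand) had 0 to 5 counts per NeuN- well and 0 to 20 per NeuN+ well. In NeuN+ wells its medians at 6, 24, 48 and 72 h were 8.30, 8.66, 10.8 and 9.43 CPM after IFN-γ and 10.9, 10.3, 9.59 and 8.03 CPM after saline. In NeuN- wells its medians at 6, 24, 48 and 72 h were 9.65, 15.1, 4.82 and 20.2 CPM after IFN-γ and 15.2, 0, 5.19 and 0 CPM after saline, where a count of 0 in a saline well of 24 or 72 h allows up to 20.6 to 44.5 CPM. IFN-γ and saline wells of Ifngr2 overlapped in both fractions at all 4 time points. Ifngr2 passed the filter between treatments only in NeuN+ wells at 48 h, with a log2 fold change of 0.15 (95% interval -0.44 to 0.74, adjusted p = 0.908, edgeR).

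Jak1 (ENSMUSG00000028530.14, chr4:101152367-101265282, - strand), the kinase held by IFNGR1, had IFN-γ wells that overlapped the saline wells throughout. In NeuN+ wells it ranged from 57.2 to 115 CPM over all groups. Medians at 6, 24, 48 and 72 h were 84.5, 82.8, 78.4 and 77.4 CPM after IFN-γ against 86.1, 86.8, 76.3 and 77.5 CPM after saline, and the groups overlapped at each time point. The log2 fold changes were -0.18, -0.06, 0.0045 and -0.11, with 95% intervals that together ran from -0.42 to 0.22 and no adjusted p below 0.438 (edgeR). NeuN- wells held 1 to 30 counts of Jak1 (24.2 to 132 CPM), too few for the filter within a time point, and their IFN-γ and saline wells also overlapped. Their medians at the 4 times were 77.2, 100, 63.5 and 53.6 CPM after IFN-γ and 78.1, 56.4, 75.3 and 80.5 CPM after saline. Without the filter the log2 fold changes in NeuN- wells were 0.16, 0.91, -0.22 and -0.45, with no adjusted p below 0.0755 (edgeR). The gene overlaps Raver2 on the other strand by 4 bases, and strand use in the counting is not given in the sources used here.

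Jak2 (ENSMUSG00000024789.12, chr19:29251828-29313080, + strand), the kinase recruited by IFNGR2, rose in NeuN- nuclei at 6 h. The 4 saline wells were at 219.9, 248, 276 and 334 CPM and the 5 IFN-γ samples at 936, 1002, 1004, 1065 and 1085 CPM. No IFN-γ sample came near a saline well, with a log2 fold change of 1.88 (SE 0.13, adjusted p = 4.43e-13, edgeR), or 3.67-fold. At 24 h, 6 IFN-γ wells had a lowest value of 382, a median of 560.3 and a highest of 580.5 CPM, and the 6 saline wells had 199, 287 and 386 CPM. The groups overlapped at their edge, and the log2 fold change of 0.84 (SE 0.15, adjusted p = 5.74e-05) lay under the limit of 1 that a call required beside an adjusted p below 0.01.

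At the later times Jak2 in NeuN- nuclei was back among saline wells. At 48 h the IFN-γ wells ranged from 212 to 294 CPM (median 257) and the saline wells were at 244, 286, 295 and 362 CPM. At 72 h the IFN-γ wells ranged from 200.3 to 278 CPM (median 259) and the saline wells were at 171, 192, 236 and 316 CPM. Both pairs of groups overlapped, with log2 fold changes of -0.13 (95% interval -0.46 to 0.19) and 0.11 (-0.24 to 0.46).

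In NeuN+ nuclei Jak2 was higher after IFN-γ by less than the limit, and the part of glial RNA in these wells was not tested. At 6 h the saline wells were at 75.7, 86.6, 86.8 and 87.0 CPM and the IFN-γ wells ran from 110.5 over a median of 135 to 149 CPM. At 24 h the saline wells ran from 74.0 over 82.6 to 89.8 CPM and the IFN-γ wells from 124 over 139.8 to 151 CPM. The groups did not overlap at either time, and the log2 fold changes were 0.61 (SE 0.10, adjusted p = 0.000102) and 0.78 (SE 0.08, adjusted p = 7.68e-08). At 48 and 72 h the groups overlapped, with medians of 91.6 and 97.0 CPM after IFN-γ, log2 fold changes of 0.26 and 0.18 and adjusted p of 0.298 and 0.382.

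**Figure D1:**
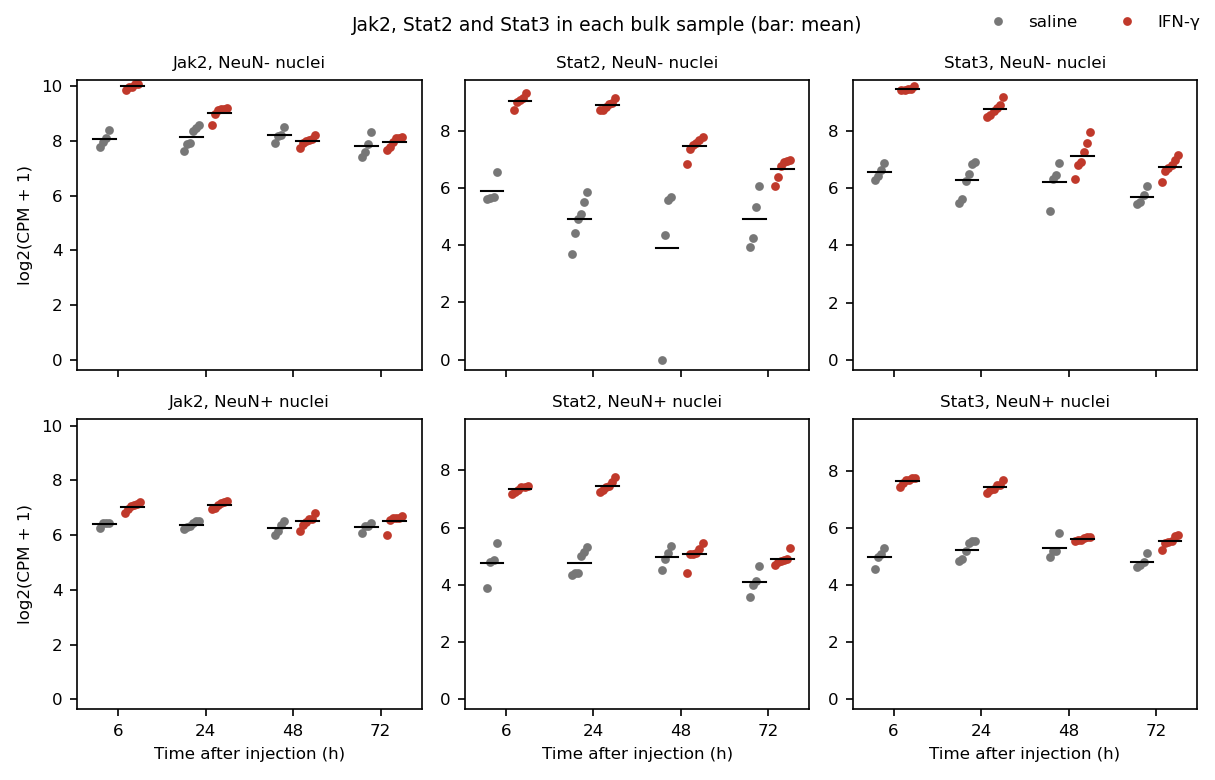
Levels of Jak2, Stat2 and Stat3 as log2(CPM + 1) on the y axis in each sample, by NeuN fraction and hours after injection on the x axis, with saline in grey, IFN-γ in red and a black bar at the mean. In NeuN- nuclei at 6 h the IFN-γ samples of all 3 genes lie above the saline wells, and at 72 h those of Jak2 lie among them.

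Stat2 (ENSMUSG00000040033.15, chr10:128270559-128292849, + strand), the partner of IRF9, rose in NeuN- nuclei at every time point. At 6 h the saline wells were at 47.7, 49.98, 50.8 and 94.2 CPM and the IFN-γ samples at 429, 514, 539, 566 and 637 CPM. The groups lay apart, with a log2 fold change of 3.12 (SE 0.21, adjusted p = 1.435e-13, edgeR), or 8.69-fold. By 24 h the saline wells ran from 12.1 over 31.2 to 57.7 CPM, or 1 to 4 counts each, and the IFN-γ wells from 422 over 472 to 574 CPM. This was the largest change among the members in any comparison of wells between treatments, 3.87 on the log2 scale (SE 0.23, adjusted p = 6.47e-14), or 14.6-fold.

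Stat2 remained called on the last days in NeuN- nuclei. At 48 h the saline wells were at 0, 19.7, 46.7 and 50.55 CPM, where a count of 0 allows up to 37.5 CPM in that well, and the IFN-γ wells ran from 113 over 187 to 222 CPM. No saline well reached the lowest IFN-γ well, and the log2 fold change was 2.40 (SE 0.33, adjusted p = 2.26e-06). At 72 h the saline wells were at 14.4, 18.15, 39.6 and 67.0 CPM and the IFN-γ wells ran from 66.8 over 114 to 125 CPM. Here the highest saline well and the lowest IFN-γ well overlapped by a fraction of a CPM, and the log2 fold change was 1.55 (SE 0.35, adjusted p = 0.00472). This call at 72 h ended without any 1 of 5 wells (saline replicates 1, 3 and 4, IFN-γ replicates 1 and 6; log2 fold change 1.28 to 1.61 in these fits, highest adjusted p = 0.0344) and under DESeq2 (1.56, adjusted p = 0.02645).

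In NeuN+ nuclei Stat2 rose at 6 and 24 h. At 6 h the saline wells were at 13.9, 26.9, 28.1 and 43.3 CPM and the IFN-γ wells ran from 144 over 163 to 174 CPM. At 24 h the saline wells ran from 19.4 over 25.9 to 38.6 CPM and the IFN-γ wells from 152 over 172 to 219.5 CPM. No wells overlapped, and the log2 fold changes were 2.61 (SE 0.15, adjusted p = 1.98e-14) and 2.73 (SE 0.14, adjusted p = 4.80e-14). At 48 h the saline wells were at 21.9, 28.6, 33.8 and 40.01 CPM and the IFN-γ wells ran from 20.3 over 33.0 to 42.5 CPM. The groups overlapped entirely, with a log2 fold change of 0.16 (95% interval -0.19 to 0.50). At 72 h the saline wells were at 11.02, 14.8, 16.7 and 24.2 CPM and all IFN-γ wells lay higher, from 25.1 over 28.0 to 38.2 CPM. The log2 fold change of 0.71 (SE 0.20, adjusted p = 0.0288) missed both limits.

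Stat3 (ENSMUSG00000004040.16, chr11:100885098-100939540, - strand), the main transducer of the interleukin-6 family, rose in both fractions at 6 and 24 h. In NeuN- nuclei at 6 h the saline wells were at 77.1, 85.9, 99.96 and 116 CPM and the IFN-γ samples at 692, 699, 712, 714 and 763 CPM. At 24 h the saline wells ran from 44.0 over 82.2 to 121 CPM and the IFN-γ wells from 364 over 431 to 589 CPM. The groups were apart at both times, with log2 fold changes of 2.83 (SE 0.17, adjusted p = 7.48e-15), or 7.11-fold, and 2.31 (SE 0.22, adjusted p = 7.33e-10). At 48 h the IFN-γ wells, from 79.7 over 136 to 251 CPM, overlapped the saline wells at 36.3, 78.65, 87.4 and 118 CPM. At 72 h they did not, at 73.1 over 109 to 141 CPM against 43.1, 45.4, 52.85 and 67.0 CPM. On the log2 scale the change was 1.02 at both times, with adjusted p of 0.0463 and 0.0424 that missed the limit.

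In NeuN+ nuclei at 6 h the saline wells held Stat3 at 22.3, 30.3, 32.5 and 38.7 CPM and the IFN-γ wells ran from 173 over 204 to 213 CPM. Saline wells at 24 h ran from 27.25 over 39.05 to 45.6 CPM and the IFN-γ wells from 147 over 171 to 204 CPM. The groups were separate, with log2 fold changes of 2.64 (SE 0.13, adjusted p = 2.12e-16) and 2.23 (SE 0.11, adjusted p = 1.53e-14). At 48 h the IFN-γ wells, from 45.8 over 47.7 to 50.3 CPM, overlapped the saline wells at 30.3, 35.4, 35.8 and 55.3 CPM (log2 fold change 0.26, 95% interval -0.04 to 0.56). At 72 h the saline wells were at 23.9, 25.15, 27.0 and 33.3 CPM and the IFN-γ wells, from 36.5 over 44.7 to 52.3 CPM, all lay above them. The log2 fold change of 0.68 (SE 0.15, adjusted p = 0.0036) was under the limit of 1. Stat3 overlaps Stat5a on the other strand by 72 bases.

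Stat4 (ENSMUSG00000062939.11, chr1:51987148-52107189, + strand), which relays interleukin-12 in lymphocytes, was nearly undetected. It had 9 counts in all NeuN- wells together and 45 in all NeuN+ wells, and 49 wells were at 0. Several NeuN- groups had no count in any well, which allows a group mean of up to 4.11 CPM (IFN-γ, 6 h), 4.46 CPM (IFN-γ, 48 h) and 5.61 CPM (saline, 72 h). A response of Stat4 was not detectable at this depth.

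**Figure D2:**
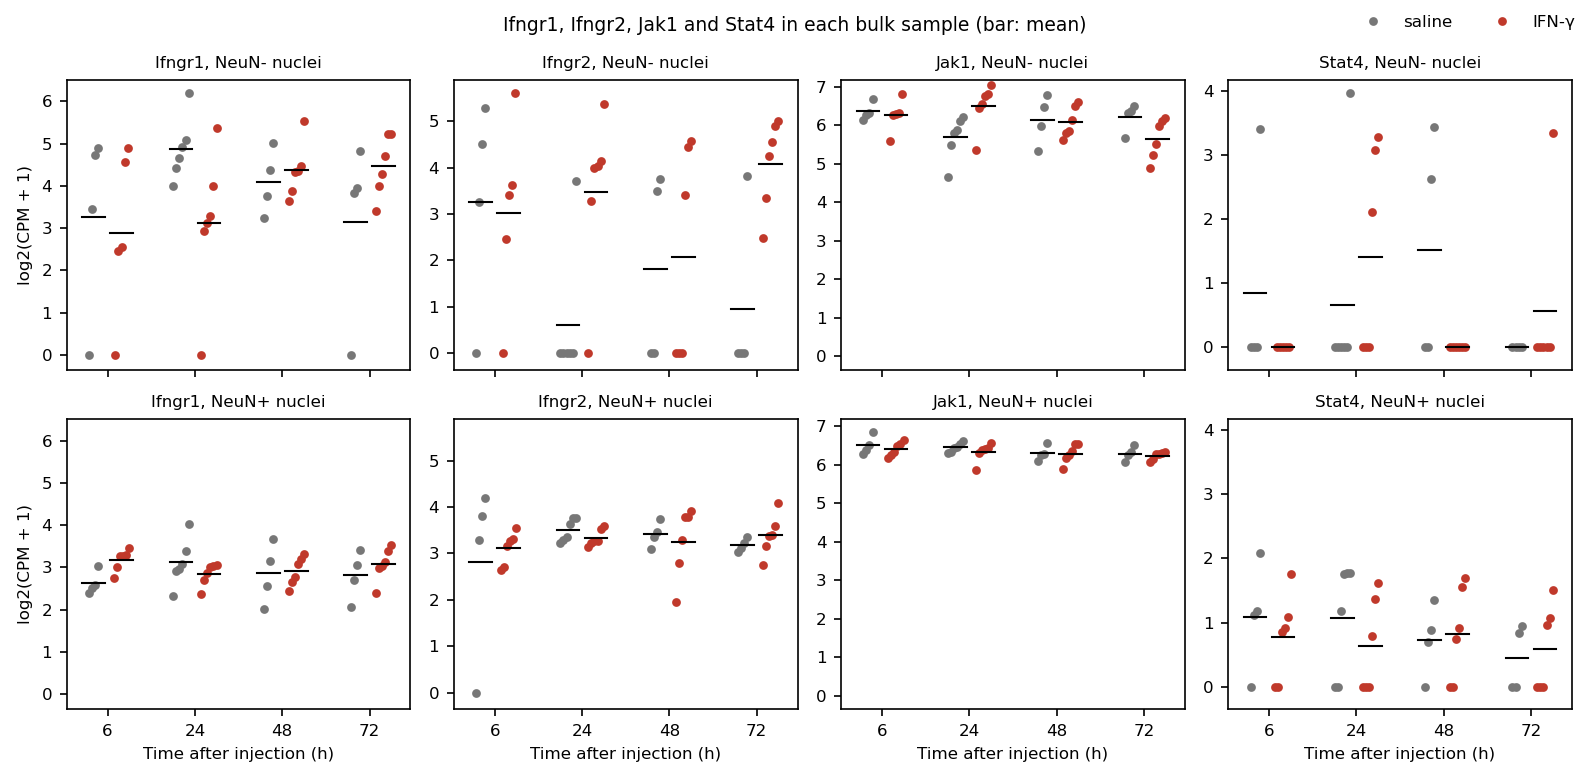
Levels of Ifngr1, Ifngr2, Jak1 and Stat4 as log2(CPM + 1) on the y axis in each sample, by NeuN fraction and hours after injection on the x axis, with saline in grey, IFN-γ in red and a black bar at the mean. IFN-γ and saline wells overlap in every panel and at every time, and many wells of the receptor genes and Stat4 are at 0, mostly in NeuN- nuclei.

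Of the 7 members, 3 were called higher in NeuN- nuclei at 6 h, beside 7.43% of all 2692 genes tested. At 24, 48 and 72 h it was 2, 1 and 1 of the 7, beside 7.22%, 1.23% and 0.754% of all genes. In NeuN+ nuclei 2 were called higher at 6 and 24 h, beside 1.08% and 1.47%, and 0 at 48 and 72 h, beside 0.15% and 0.351%. No member was called lower. The members that passed the filter numbered 3 at each time in NeuN- nuclei (Jak2, Stat2, Stat3), and 4 in NeuN+ nuclei (Jak1 as well) or 5 at 48 h (Ifngr2 as well). Passing is not independent of the response: in NeuN- nuclei at 24 h Stat2, with 1 to 4 counts per saline well, passed through its IFN-γ wells, while Jak1, with 2 to 10 counts per saline well, failed. The shares of all genes tested are therefore given as a background and not as a comparison with the members that passed.

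**Figure D3:**
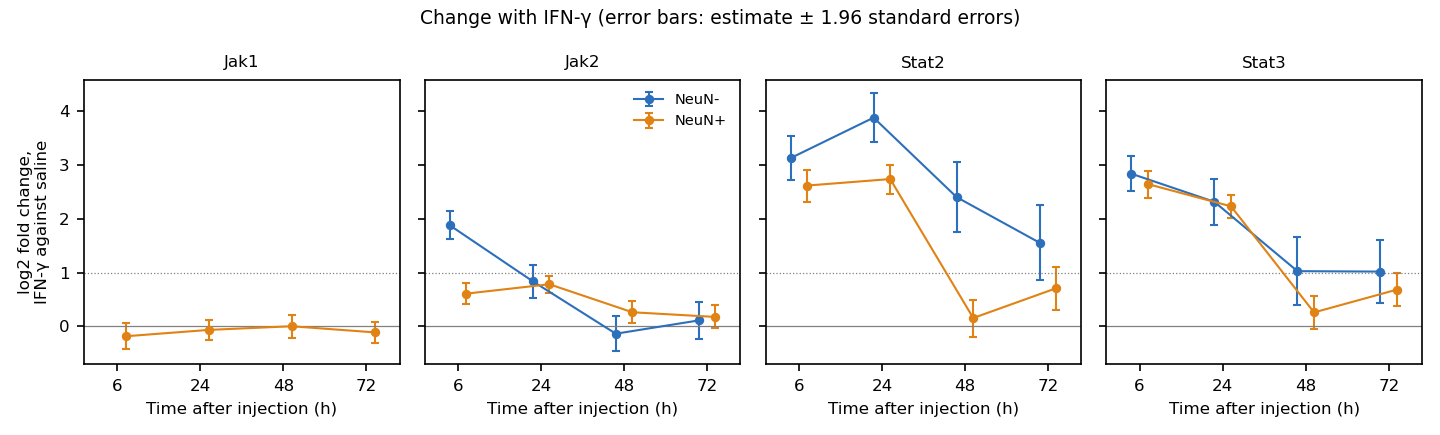
Log2 fold change of IFN-γ against saline wells with bars for the 95% interval on the y axis, for Jak1 (NeuN+ only), Jak2, Stat2 and Stat3 at 6, 24, 48 and 72 h on the x axis, NeuN- in blue and NeuN+ in orange, with a dotted line at the limit of 1. The estimate for Stat2 in NeuN- nuclei stays above the line from 3.12 at 6 h to 1.55 at 72 h, whereas in NeuN+ nuclei it is at 0.16 at 48 h.

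Whether the response differed between fractions was tested as an interaction at each time point. Jak2 rose less in NeuN+ than in NeuN- nuclei at 6 h, by a difference of -1.315 in log2 fold change (SE 0.17, adjusted p = 2.76e-07, edgeR), and it was called beside 2.29% of all genes in either direction. For Jak2 at 24 h it was -0.17 (95% interval -0.50 to 0.16), and no member was called at that time, beside 4.22%. Stat2 differed at 48 h by -2.28 (SE 0.39, adjusted p = 0.00209), beside 0.128% of all genes, and lost the call without 1 saline well (replicate 3 at 48 h; -2.12, adjusted p = 0.0103). Its differences of -0.57 at 6 h (adjusted p = 0.361), -1.28 at 24 h (adjusted p = 0.0153) and -0.845 at 72 h (adjusted p = 0.44) missed a limit. Stat3 had differences of -0.25, -0.18, -0.79 and -0.32 at the 4 times, none of which passed the test, with adjusted p from 0.387 to 0.787. For Jak1 the difference was -0.91 at 24 h (SE 0.29, adjusted p = 0.0339) and -0.24, 0.16 and 0.39 at 6, 48 and 72 h. Ifngr1, Ifngr2 and Stat4 failed the filter in these fits. With NeuN+ counts thinned towards the depth of NeuN- wells the difference of Stat2 at 48 h was -1.90 with an adjusted p of 0.287, and the call was lost.

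Without treatment, Jak2 and Stat3 were lower in NeuN+ than in NeuN- nuclei as a share of the counts of a well. Their summed counts were higher in the deeper NeuN+ wells (Jak2 1483 against 534, Stat3 650 against 151). The level per nucleus was not measured. With 18 saline wells a fraction, Jak2 ran from 171 over a median of 262 to 386 CPM in NeuN- and from 63.7 over 81.0 to 90.0 CPM in NeuN+ nuclei, with no overlap (log2 difference -1.835, SE 0.08, adjusted p = 1.12e-26). Stat3 ran from 36.3 over 77.9 to 121 CPM against 22.3 over 32.9 to 55.3 CPM, with some overlap (-1.24, SE 0.15, adjusted p = 3.18e-10). Jak1 did not pass the limits, with medians of 72.1 and 80.9 CPM (log2 difference 0.12, 95% interval -0.12 to 0.35). Of the 7 members, 2 were called lower in NeuN+, and 3 passed the filter. Of all genes tested, 27.6% were called lower, 32.0% higher and 59.7% in either direction. Stat3 lay at the edge of the filter and did not pass it without any 1 of the 18 NeuN+ wells. Ifngr1, Ifngr2, Stat2 and Stat4 failed the filter. The medians of Ifngr1 were 20.1 CPM in NeuN- (40 counts) and 6.70 CPM in NeuN+ wells (126 counts), and in the fit without a filter Ifngr1 was called lower in NeuN+ (-1.24, adjusted p = 0.000114). Ifngr2 had medians of 0 (14 counts) and 9.20 CPM (181 counts), 0.84 in that fit (adjusted p = 0.0671), and Stat2 had medians of 42.1 and 25.5 CPM.

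The IFN-γ effect was larger at 6 than at 72 h for 2 members in each fraction. The log2 fold change at 6 h exceeded that at 72 h in NeuN- nuclei by 1.81 for Stat3 (SE 0.36, adjusted p = 2.67e-04) and by 1.75 for Jak2 (SE 0.22, adjusted p = 6.48e-08), and in NeuN+ nuclei by 1.90 for Stat2 (SE 0.29, adjusted p = 2.05e-05) and by 1.95 for Stat3 (SE 0.21, adjusted p = 2.27e-08). In NeuN- nuclei Stat2 missed the limit (1.56, SE 0.48, adjusted p = 0.021), and in NeuN+ nuclei so did Jak2 (0.43, adjusted p = 0.112) and Ifngr2 (-0.88, adjusted p = 0.346). Jak1 was at 0.48 in NeuN- and -0.08 in NeuN+ nuclei without passing (adjusted p = 0.53 and 0.873), and the other members failed the filter. Of the 7 members, 2 were called in each fraction, where 4 and 5 passed the filter. Of all genes tested, 5.17% and 1.25% were called in either direction.

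The mice of different groups were not alike in sex. The summed level of 4 Y-linked genes in NeuN+ wells was 4.30 to 9.99 CPM after IFN-γ and 152 to 224 CPM after saline at 6 h, and 849 to 961 against 15.4 to 869 CPM at 24 h. At 48 h it was low in both groups (medians 12.7 and 17.25 CPM) and at 72 h high in both (989.6 and 939 CPM). At 6 h sex and treatment therefore cannot be told apart within the time point, at 24 h they were partly confounded, and no term for sex was fitted. The saline wells at 6 h lay between the levels of 48 h and those of 72 h, so the sex of their mice is not settled. Against the saline wells of all times, which span the whole range of Y-linked levels, Stat2 was higher by 3.75 and 3.56 on the log2 scale in NeuN- and by 2.63 and 2.80 in NeuN+ nuclei at 6 and 24 h, and Stat3 by 3.20 and 2.48 and by 2.49 and 2.33. Jak2 in NeuN- nuclei at 6 h was higher by 1.92. All of these kept their calls, and the part of sex in them, and in the differences between times, was not tested.

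Markers of cell types moved with treatment in the same wells. In NeuN- nuclei the summed level of 6 oligodendrocyte markers had medians of 4517 after IFN-γ against 7839 CPM after saline at 6 h (4 of 6 called lower) and 2616 against 7721 CPM at 24 h (6 of 6 called lower), and of 7489 against 8195 and 7935 against 8178 CPM at 48 and 72 h. The microglial list was at 153 against 551 CPM at 6 h, and the astrocyte list at 1913 against 789.5 CPM at 24 h. Of all genes tested in NeuN- nuclei, 107 of 2692 at 6 h and 139 of 1883 at 24 h were called lower. In NeuN+ nuclei a list of thalamic markers was at 1042 against 1491 CPM at 6 h (3 of 5 tested called lower) and at 1180 against 1458 CPM at 24 h (2 of 6 lower). It was at 1433 against 1335 CPM at 48 h (2 of 6 higher) and at 1279 against 1637 CPM at 72 h (3 of 6 lower). At 24 h the astrocyte list was at 299 against 171 CPM there (2 of 3 tested called higher) and the GABA list at 136 against 252 CPM (1 of 2 lower). At 72 h the dopamine list was at 500.0 against 209 CPM (5 of 5 tested called higher). Of all genes tested in NeuN+ nuclei, 26 of 9033, 25 of 9416 and 39 of 9405 were called lower at 6, 24 and 72 h. Called higher were 138 of 9416, 15 of 10033 and 33 of 9405 at 24, 48 and 72 h. In sorted wells, fewer nuclei of a type and less RNA per nucleus cannot be told apart, and the part of these shifts in the levels of the members was not tested.

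Other genes of the route were read from lists of 6 further genes (Jak and Stat genes and Irf9), 20 receptors that signal through Jak kinases and 19 inhibitors. In NeuN+ nuclei Irf9, the DNA-binding partner of STAT2, rose at 6 h (log2 fold change 1.57, SE 0.30, adjusted p = 0.000549) and 24 h (2.31, adjusted p = 1.14e-07), as 1 of 3 tested on its list. Usp18, a protease that blocks signalling at the type I interferon receptor, had 2 counts in the saline wells together against 236 in the IFN-γ wells at 6 h (adjusted p = 1.08e-09), and 3 against 176 at 24 h, as the 1 inhibitor called of 11 tested. None of the 10 receptors tested was called in NeuN+ nuclei at any time. In NeuN- nuclei Ptpn2, a phosphatase that removes phosphate from JAK1 and STAT proteins, rose at 6 h (1.62, SE 0.32, adjusted p = 0.000169, 1 of 4 inhibitors tested), and Ghr, the growth hormone receptor, rose at 24 h (1.43, SE 0.25, adjusted p = 2.51e-05, 1 of 2 receptors tested). No gene of these lists was called in wells at 48 or 72 h. Of all genes tested, 1.08% and 1.47% were called higher in NeuN+ nuclei at 6 and 24 h, and 7.43% and 7.22% in NeuN- nuclei.

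Single nuclei gave the level of each member by cell class at 48 h, as a share of the UMIs of the class and not per nucleus. Depth differed between classes, with 512210 UMIs in the microglia-like and 8783812 in the dopamine-like nuclei. Clusters were named from marker genes, with members left out of the genes used for clustering. The named classes were oligodendrocyte-like (1241 nuclei), GABA-like (992), VGLUT2-like (725), dopamine-like (385), astrocyte-like (193) and microglia-like (134), and 1029 nuclei stayed unnamed. Saline, first and second IFN-γ mouse held 1016, 2574 and 1109 nuclei with medians of 14645.5, 9404.5 and 11767 UMIs, and no barcode was shared. Each class carried its own markers in all mice, for instance a summed oligodendrocyte list of 143 to 174 and a summed microglial list of 79.8 to 127 UMIs per 10000. In the microglia-like class the list of monocytes and macrophages was at 8.93 in the saline mouse and at 3.57 and 12.8 in the IFN-γ mice. A cluster of 565 oligodendrocyte-like nuclei led by interferon-inducible genes (Tgtp2, Iigp1, Gbp7, Irgm1) came from IFN-γ mice alone.

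The receptor genes were highest in the microglia-like class. Ifngr1 was there at 3.57 UMIs per 10000 in the saline mouse (30 UMIs, exact 95% Poisson interval 2.41 to 5.1, counting error only) and at 1.07 (21 UMIs) and 1.55 (36 UMIs) in the IFN-γ mice, and at no more than 0.144 in any other class and mouse, with 0 UMIs in astrocyte-like nuclei of the saline mouse allowing up to 0.275. Its lower level after IFN-γ, -1.45 on the log2 scale (SE 0.42, adjusted p = 0.0329, edgeR), did not pass. Ifngr2 was at 1.79, 2.04 and 2.15 in microglia-like nuclei. In the other classes it was at 0.17 to 0.196 in VGLUT2-like, 0.139 to 0.156 in GABA-like, 0.0756 to 0.105 in dopamine-like, 0.0144 to 0.037 in oligodendrocyte-like and 0 to 0.0309 in astrocyte-like nuclei. The ranges over 3 mice of microglia-like, VGLUT2-like, GABA-like and dopamine-like nuclei did not meet. The Poisson intervals of the neuronal classes did overlap in the saline mouse, at 0.135 to 0.259, 0.125 to 0.192 and 0.0744 to 0.141. In the first IFN-γ mouse those of GABA-like (0.121 to 0.181) and dopamine-like nuclei (0.0461 to 0.117) did not. The place of astrocyte-like nuclei is not bounded, since 0 UMIs of Ifngr2 there allow up to 0.275 in the saline and 0.129 in the second IFN-γ mouse.

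By share of UMIs, Jak1 was likewise highest in microglia-like nuclei, at 3.93 in the saline and 2.45 and 2.75 in the IFN-γ mice. Astrocyte-like nuclei followed at 1.25 to 1.56, the 3 neuronal classes at 0.612 to 0.816 and oligodendrocyte-like nuclei at 0.367 to 0.471. In the saline mouse Jak1 had 33 UMIs in 31 microglia-like nuclei. It had 126 in 131 VGLUT2-like, 402 in 292 GABA-like and 277 in 166 dopamine-like nuclei, so counts per nucleus gave another order. Jak2 was at 1.7, 2.0 and 2.08 in oligodendrocyte-like nuclei (saline, then IFN-γ mice) and at 0.833, 0.919 and 2.02 in microglia-like nuclei, ranges that overlap. It was at 0.556 to 1.03 in astrocyte-like and 0.404 to 0.651 in the neuronal classes. In the saline mouse Jak2 had 118 UMIs in 191 oligodendrocyte-like nuclei. The neuronal classes had more per nucleus, with 134 in 131 VGLUT2-like, 307 in 292 GABA-like and 187 in 166 dopamine-like nuclei. In no class was Jak1 or Jak2 called between treatments.

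Stat2 in oligodendrocyte-like nuclei was at 0.288 in the saline mouse (20 UMIs) and at 1.44 and 1.64 in the IFN-γ mice (389 and 237 UMIs). All tests in nuclei rest on the spread between the 2 IFN-γ mice, since 1 saline mouse has none, and do not measure how saline mice vary. On the log2 scale the change of Stat2 was 2.48 (SE 0.28, adjusted p = 3.197e-16, edgeR). Stat2 was the 1 member of 7 past the limits, with 6 tested, beside 1% of all genes in that class. Under a limit of 3 on the log2 scale Stat2 was not called. Astrocyte-like nuclei held 0.275, 1.27 and 1.59 (2.35, adjusted p = 0.0835) and microglia-like nuclei 0.476, 1.79 and 2.58 (2.17, adjusted p = 0.0349). Both IFN-γ mice exceeded the saline mouse there, in classes where a simulated 4-fold change was recovered in 23% and 13.8% of genes. The simulation did not require each IFN-γ mouse to pass the limit, as the calls did. In the neuronal classes Stat2 was not called. VGLUT2-like nuclei were at 0.151, 0.333 and 0.341 (1.18, adjusted p = 0.133), GABA-like at 0.201, 0.28 and 0.308 (0.55) and dopamine-like at 0.273, 0.287 and 0.344 (0.20).

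Stat3 in oligodendrocyte-like nuclei was at 0.677 in the saline mouse and 1.32 and 1.18 in the IFN-γ mice, a log2 fold change of 0.96 (adjusted p = 0.003) just under the limit of 1. Astrocyte-like nuclei held 0.458, 1.48 and 1.38 (1.68, adjusted p = 0.354) and microglia-like nuclei 1.55, 2.2 and 1.76, while the neuronal classes lay between 0.224 and 0.449 in all mice. Stat4 had at most 5 UMIs in any class and mouse. In astrocyte-like, microglia-like and neuronal classes 0 members were called (5 tested in astrocyte-like, 6 in the others), beside 0.0949%, 1.04%, 0.13%, 0.0771% and 0.0884% of all genes in astrocyte-like, microglia-like, VGLUT2-like, GABA-like and dopamine-like nuclei.

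Of the further genes of the route, Irf9 in oligodendrocyte-like nuclei was at 0.0576 UMIs per 10000 in the saline mouse (4 UMIs) and at 0.567 and 0.616 in the IFN-γ mice (3.401, adjusted p = 2.95e-10). Il12rb1, a chain of the interleukin-12 receptor, was at 0.0576 (4 UMIs), 0.267 and 0.395 (2.52, adjusted p = 0.00061). Usp18 had 0 UMIs in the saline mouse, which allows up to 0.0432, and 34 and 37 UMIs in the IFN-γ mice (adjusted p = 0.000268). These p-values have the same limit of 1 saline mouse. No gene of the lists passed in the other classes.

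**Figure D4:**
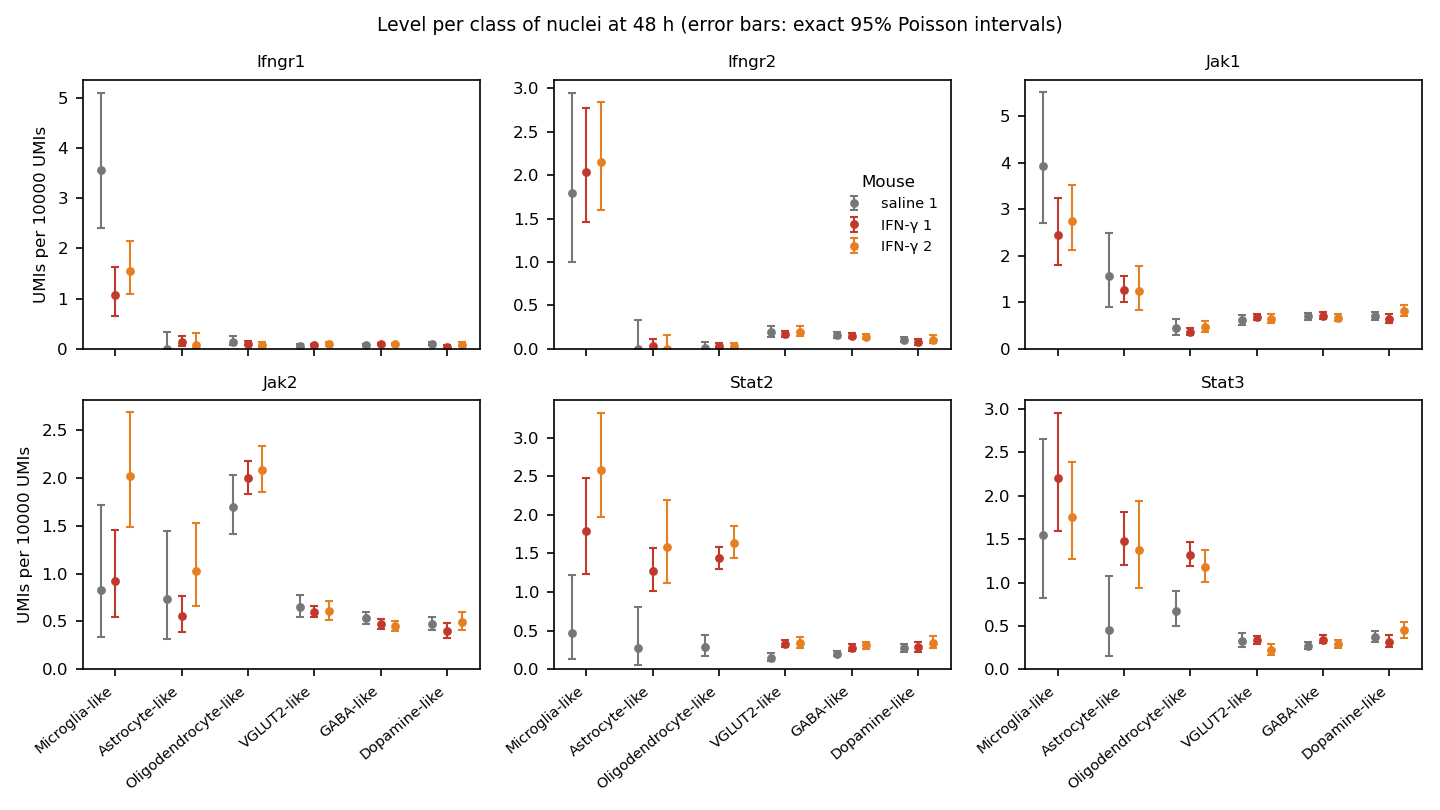
UMIs per 10000 UMIs of Ifngr1, Ifngr2, Jak1, Jak2, Stat2 and Stat3 on the y axis in each class of nuclei on the x axis, 1 point per mouse with its exact 95% Poisson interval, saline in grey, the first IFN-γ mouse in red and the second in orange. By this share of UMIs, Ifngr1, Ifngr2 and Jak1 are highest in microglia-like nuclei. Stat2 in oligodendrocyte-like nuclei is at 0.288 in the saline mouse and at 1.44 and 1.64 in the IFN-γ mice.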

How the data were processed

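The authors deposited 1 table of UMI counts for 84 wells and 1 for 4699 nuclei. According to the methods the authors trimmed poly(A), aligned reads by STAR (version not given in the sources used here) in 2-pass mode to GRCm38 with Gencode vM10, and collapsed UMIs within a Hamming distance of 1. The nuclei were made with 10x Chromium 3′ v3, introns counted. The paper retained 4699 nuclei after it filtered doublets and excluded rare populations, mural and T cells for example, and ambiguous neuronal clusters. The counts carry no normalization. Coordinates of genes are those of Gencode vM21 on GRCm38, and sequences are from RefSeq.

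The members and lists were chosen with earlier results of these data known. The text names the 7 members in every comparison and, of the pathway lists, counts and up to 3 called genes of largest change.

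Counts were tested in R 4.3.3 with edgeR 4.0.16 and limma 3.58.1 (filterByExpr, TMM, quasi-likelihood F test, Benjamini and Hochberg over all genes tested). SE is the log2 fold change over the root of F. Calls took a limit of 1 on the log2 fold change (0.5 between fractions) and an adjusted p below 0.01, and in nuclei both IFN-γ mice beyond 1. Figures and overlap use CPM on total counts. The fraction of each well came from the sample sheet of the study. Nuclei were clustered in Python 3.11.15 (leidenalg 0.10.2 and igraph 0.11.9, scikit-learn 1.9.0, pandas 2.3.3, scipy 1.17.1, numpy 2.4.6; 2000 variable genes, 30 components, 15 neighbours, resolution 1), and UMIs were summed per mouse and class, with genes of at least 10 UMIs tested. Figures were drawn by matplotlib 3.10.9. Zero counts were set against a floor of 3 counts. Intervals and floors cover counting error only. Alternatives were RLE factors, DESeq2 1.42.0, no filter, 1 fit of all wells, pooled saline wells, thinned NeuN+ counts, other limits and resolutions, and each well or mouse left out. On simulated counts with 4-fold changes, 100% of tested changed genes were recovered between treatments in wells, and 13.8% to 77.1% in classes of nuclei. Recovery was 81.2% to 88.1% for differences between fractions at 6 and 48 h and between 6 and 72 h. Simulated wells were independent with 1 common dispersion, so shared mice were not modelled. Simulated nuclei were called without the rule on both IFN-γ mice.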

Additional observations from a re-analysis of the deposited data

Results flagged for a closer look

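Some single wells stood apart from the rest of their group of 4 to 6 wells. Chance marks about 1 in 20 groups, and 64 groups were looked at. In NeuN+ saline wells at 6 h the lowest Jak2 value was 75.7 CPM, with the next at 86.6. In NeuN+ IFN-γ wells at 72 h the lowest Jak2 value was 63.0 CPM, with the next at 93.1. In NeuN+ IFN-γ wells at 72 h the highest Stat2 value was 38.2 CPM, with the next at 28.7. In NeuN- saline wells at 6 h the highest Stat2 value was 94.2 CPM, with the next at 50.8.

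Effects that differed between groups by the interaction test were those of Jak2 between fractions at 6 h (-1.315 on the log2 scale, NeuN+ minus NeuN-) and of Stat2 between fractions at 48 h (-2.28). Between 6 and 72 h they were those of Stat3 (1.81) and Jak2 (1.75) in NeuN- nuclei, and of Stat2 (1.90) and Stat3 (1.95) in NeuN+ nuclei.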

How the results depend on the processing

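Of 1443 alternative values of members that still entered the fit, 1428 kept their side of the limits or moved little without a test. Another 9 lost the call, 3 gained it and 3 moved without a test. Of called members 0 reversed, and the direction of members not called was not checked. Calls lost because a member failed the filter are outside this count. These were Stat3 between saline fractions and Stat2 in NeuN- nuclei at 72 h against saline wells of all times. The counts of genes called moved more. Without a filter they were 335, 432, 45 and 38 higher in NeuN- nuclei at 6, 24, 48 and 72 h, 247 and 36 in NeuN+ nuclei at 24 and 48 h, 21 and 40 for the fraction difference at 48 and 72 h, and 7233 between saline fractions, with 4 members (Jak1 0.56, adjusted p = 0.000118, and Ifngr1 -1.24, adjusted p = 0.000114, were added). In 1 fit of all wells they were 321, 396, 47 and 35 in NeuN- nuclei and 29 in NeuN+ nuclei at 48 h. DESeq2 gave 275 in NeuN- nuclei at 24 h, 0 members in NeuN- nuclei at 72 h, 15 for the fraction difference at 48 h, 6463 between fractions, and 38, 0, 4, 5, 7 and 5 in oligodendrocyte-like, astrocyte-like, microglia-like, VGLUT2-like, GABA-like and dopamine-like nuclei. With saline wells of all times NeuN- nuclei had 16 at 48 h and 14 at 72 h, with 0 members at 72 h, and NeuN+ nuclei 9 at 48 h. With NeuN+ counts thinned, NeuN+ nuclei had 10, 10, 0 and 5, the fraction difference 65, 173, 0 and 2 with 0 members at 48 h, and the saline fractions 1584 with 1 member. A limit of 3 gave 79 genes and 0 members in oligodendrocyte-like, 8 in VGLUT2-like, 7 in GABA-like and 9 in dopamine-like nuclei. RLE factors gave 2 in astrocyte-like and 30 in GABA-like nuclei. Genes of at least 1 UMI gave 48 in VGLUT2-like and 34 in GABA-like nuclei. Resolution 0.5 gave 0 and 3 there, and resolution 2 gave 8 and 3. The causes were not tested, except that fewer or more genes enter a fit with another filter.

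Without 1 well, members called were 0 to 1 in NeuN- nuclei at 72 h (Stat2 1.28 to 2.06), 0 to 1 for the fraction difference at 24 h (Stat2 -1.45 to -1.06, called without saline replicate 11) and 0 to 1 at 48 h (Stat2 -2.66 to -2.01, highest adjusted p = 0.0103, with 4 to 9 genes), and 1 to 2 between saline fractions, where Stat3 failed the filter in 18 of 36 cases. Stat2 between 6 and 72 h in NeuN- nuclei was 1.09 to 1.85 and was called in 1 of 19, without saline replicate 1 of 72 h (adjusted p = 0.00721). Without 1 mouse Jak2 in microglia-like nuclei was 0.14 to 1.22, Stat3 in VGLUT2-like nuclei -0.56 to 0.10 and Ifngr1 in dopamine-like nuclei -1.15 to -0.18. No paired analysis was possible because the labels carry no replicate numbers shared between groups and the mouse of a well was not given.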

Other observations

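Over the 16 groups of wells, by fraction, treatment and time, the genes of most similar pattern were read off among 12200 genes, as a description. Pearson's r was taken on log2(CPM + 1) of summed counts after the mean of each fraction was subtracted. For Stat2 they were Herc6 (0.986) and Dtx3l (0.983), for Stat3 Rnf213 (0.981) and Parp14 (0.976), and for Jak2 2610507B11Rik (0.979) and Crem (0.971). Jak1 came with Etnk1 (0.925) and Lmbrd2 (0.89), Ifngr1 with Scd3 (0.862) and Nectin1 (0.833), and Ifngr2 with Zfyve28 (0.936) and D5Ertd579e (0.934). Ifngr1 and Ifngr2 had only 415 and 487 counts over all wells. For Stat4, with 54 counts in all, they were Elmod1 and Rtn1 (both 0.881). The groups share fractions and wells of 1 sequencing scheme, so the points are not independent. Each r was picked as among the highest of 12200 genes over 16 groups and was not set against chance.

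Other genes of the route differed between fractions in saline wells. Lifr, a receptor chain of leukaemia inhibitory factor, had a log2 difference of -2.34 (NeuN+ minus NeuN-) and Ptpn11, a phosphatase, of -0.97, while Ghr (1.20), Socs6 (0.70) and Ptpn2 (0.58) were higher in NeuN+ nuclei. The IFN-γ effect differed between fractions, as NeuN+ minus NeuN-, for Ptpn2 at 6 h (-1.46, adjusted p = 0.00225) and Ghr at 24 h (-1.29, adjusted p = 0.000191). It also differed for Lepr, the leptin receptor, at 24 h (adjusted p = 0.00709), with 0 counts in NeuN- saline wells and 23 in NeuN- IFN-γ wells. Of the clusters of nuclei, cluster 21 (49 GABA-like nuclei) came from the first IFN-γ mouse alone, and cluster 18, VGLUT2-like and led by Lef1, Synpo2 and Prkcd, held 81 of its 95 nuclei from that mouse.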
